A study of Mus musculus with 8 samples.

Results

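Genes of 2 kinds, most of them annotated as noncoding, were measured together. They are named for their contents or their neighbours: host genes of small RNAs, and transcripts that lie on the strand opposite a named partner gene. They were taken from the gene table by symbol, as names of the form Snhg plus a number, Mir plus a number ending in hg, or a name of more than 5 characters ending in os or in os plus a number, with Nanos genes left out. The pattern took 65 of 13101 genes, 16 of them host genes (14 Snhg and 2 Mir) and 49 ending in os. Of the 49, Selenos and Minos1 end in os by spelling only, encode a selenoprotein and a mitochondrial protein, and are kept apart, which leaves 47 opposite-strand transcripts. RNA was sequenced from 4 pools of embryos that lack Dux (Dux KO) and 4 wild-type pools (WT), all at the 2-cell stage and with a C57BL/6 strain background. Each pool held 12 to 18 embryos collected after timed matings. Libraries were made from polyadenylated RNA, amplified as cDNA with a kit for low input and cut into sequencing libraries with Nextera XT. Dux is a homeobox gene whose protein turns on genes as the mouse genome is first transcribed, and the comparison asks how each transcript stands in embryos without it. The labels do not give the knockout allele or the parents of the pools, so p-values measure only how these pools spread.

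Small nucleolar RNAs (snoRNAs) guide chemical changes of ribosomal and spliceosomal RNA, and most are cut out of introns of host genes while the host is spliced. In many Snhg genes the spliced exons carry little or no known protein, and the product that is used is in the introns. MicroRNA host genes release hairpins that are cut to short RNAs, which repress messages that match their seed. Opposite-strand transcripts start beside, inside or downstream of a protein-coding gene and run against it, and many share a promoter region with it.

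In GENCODE M21, the annotation used for positions, 8 host genes are processed transcripts, 6 lincRNAs, 1 antisense and 1, Snhg11, protein-coding. The opposite-strand genes comprise 31 antisense genes, 4 lincRNAs, 2 bidirectional-promoter lncRNAs and 10 protein-coding genes, among them Slc7a6os. The values below are of the spliced or unspliced polyadenylated host transcript, and not of the small RNA itself. The microRNAs of both Mir hosts are shown because a microRNA finds its targets by its seed, with the seed (bases 2 to 8) in capitals, from RefSeq on GRCm38.p6. Mir17hg holds 6 microRNA genes and Mir22hg 1.
mmu-miR-17-5p: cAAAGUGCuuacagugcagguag
mmu-miR-20a-5p: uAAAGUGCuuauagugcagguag
mmu-miR-18a-5p: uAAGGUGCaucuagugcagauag
mmu-miR-19a-3p: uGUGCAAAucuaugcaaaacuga
mmu-miR-19b-3p: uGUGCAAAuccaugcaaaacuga
mmu-miR-92a-3p: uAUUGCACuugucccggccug
mmu-miR-22-3p: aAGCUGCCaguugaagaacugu
Of the 6 from Mir17hg, miR-17-5p and miR-20a-5p share a seed, miR-19a-3p and miR-19b-3p share another, and miR-18a-5p and miR-92a-3p have seeds of their own.

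Among the Snhg genes, Snhg1 spans 8 annotated snoRNAs, Snhg12 4 and Snhg14, the host of the imprinted snoRNA clusters beside Ube3a, 208. The small RNA of the 4 hosts with the largest called changes is shown, each from GENCODE M21 on GRCm38 and read on the strand of its host. Snord123 lies in Snhg18 at chr15:32241853-32241923, and its capitals mark a box C motif and a box D motif, the short elements bound by the proteins of this class.
Snord123: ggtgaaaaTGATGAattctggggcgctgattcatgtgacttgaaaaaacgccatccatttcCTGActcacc
The other small RNAs are of the H/ACA kind, and their capitals mark the ACA that stands 3 bases before the 3′ end. Snora78 lies in Snhg9 at chr17:24719676-24719803, Snora9 in Snhg15 at chr11:6528033-6528165 and Scarna13, a guide RNA of Cajal bodies, in Snhg10 at chr12:105031075-105031349.
Snora78: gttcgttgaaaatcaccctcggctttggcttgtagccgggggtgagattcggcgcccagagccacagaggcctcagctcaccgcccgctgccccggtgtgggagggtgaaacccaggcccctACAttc
Snora9: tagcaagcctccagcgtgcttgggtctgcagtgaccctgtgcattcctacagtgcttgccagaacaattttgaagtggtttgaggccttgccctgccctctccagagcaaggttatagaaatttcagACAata
Scarna13: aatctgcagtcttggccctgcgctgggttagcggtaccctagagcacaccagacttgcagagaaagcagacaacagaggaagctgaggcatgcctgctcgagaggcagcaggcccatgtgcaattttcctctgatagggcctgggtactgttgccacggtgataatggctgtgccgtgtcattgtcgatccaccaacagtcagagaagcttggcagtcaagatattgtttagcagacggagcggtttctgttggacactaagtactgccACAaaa

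Whole reads recovered from the table came to 12343369 to 14548526 per pool, and the Dux transcript itself was not analysed here, so the genotype labels were not checked against it. All 16 markers of the 2-cell embryo were present, with summed levels of 5232 to 8664 FPKM in Dux KO and 6393 to 7621 FPKM in WT, 2 of them called higher and 5 lower. Of markers of other cells, 6 of 11 for cumulus and granulosa cells summed to 26.6 to 49.6 FPKM in Dux KO and 28.9 to 34.4 FPKM in WT, with 1 called higher. Oviduct markers, 3 of 6, summed to 96.8 to 138 FPKM in Dux KO and 130 to 150 FPKM in WT, with 1 called lower. Of 6 blood markers Cd68 was measured, and of 6 sperm markers 0 were. The part of other cells in the results was not tested. In pools, fewer cells that hold a transcript and less of it per cell cannot be told apart. The first principal component separated the groups, and Dux KO pool 2 lay farthest out, so that some results are also given without it. The host and opposite-strand genes were covered by a median of 308 and 83.5 reads per pool. The lowest mean was 29.8 reads, for Aknaos, so single values of rare transcripts rest on few reads.

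Of 15 host genes tested, 4 were called lower in Dux KO and 1 higher, and 10 were not called (limma on log2(FPKM + 1), Benjamini-Hochberg adjusted p under 0.05). The log2 fold change was negative for 14 of them, called or not. Over all 12434 genes tested, 33.6% were called, 18.1% lower and 15.5% higher, and 51.6% had a negative log2 fold change. The 5 calls among 15 hosts are 33.3%, about the background. Their median log2 fold change was -0.32, with the middle of the list at -0.48 to -0.20, beside a median of -0.02 over all genes. Where only genes averaging 5 FPKM or more are taken, 11 of the hosts among them, the median of all genes was -0.18 and that of hosts -0.34. In that range the log2 fold change was negative for 10 of the 11 hosts and for 3912 of 6468 genes. Snhg14, at 0.272 ± 0.0907 FPKM in Dux KO and 0.522 ± 0.319 FPKM in WT (SD, n = 4 each), was under the minimum of 0.5 FPKM and was not tested. Median FPKM over the 15 hosts was 11.3 to 14.2 in the 4 Dux KO pools and 14.5 to 18.4 in the 4 WT pools. The groups of pools did not overlap in this summary, but only by the narrow gap from 14.2 to 14.5 FPKM. Each such median is the level of 1 gene. Over all genes tested the medians were 5.13 to 5.32 FPKM in Dux KO and 5.11 to 5.20 FPKM in WT pools.

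Snhg18, the host of Snord123 (chromosome 15, 32240565 to 32244662, minus strand), was the 1 host that rose. Its level was 12.4, 17.6, 11.9 and 14.9 FPKM in Dux KO pools 1 to 4, against 5.31, 7.02, 10.8 and 7.67 FPKM in WT pools 1 to 4. All Dux KO pools lay above all WT pools, by a narrow gap between Dux KO pool 3 and WT pool 3. The log2 fold change was 0.83 (SE 0.21, limma adjusted p = 0.0130).

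Snhg9, the host of Snora78 (chromosome 17, 24719531 to 24719965, minus strand), fell most. Its levels were 29.7, 27.1, 47.9 and 19.2 FPKM in Dux KO and 78.7, 58.2, 43.5 and 57.7 FPKM in WT, a log2 fold change of -0.96 (SE 0.26, limma adjusted p = 0.0169). Dux KO pool 3 lay above WT pool 3, so the groups overlap. The annotated exons of Snhg9 are 183 bases in all, of which 14 overlap exons of Rps2, a ribosomal protein gene on the other strand.

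Snhg10, which holds Scarna13 (chromosome 12, 105030617 to 105032279), was at 43.5, 38.3, 48.3 and 55.5 FPKM in Dux KO and 67.5, 84.6, 58.4 and 63.3 FPKM in WT. Every Dux KO pool was below every WT pool, with a log2 fold change of -0.55 (SE 0.17, limma adjusted p = 0.0273). Snhg15, the host of Snora9 (chromosome 11, 6525591 to 6528760) and the most abundant host, was at 67.8, 59.8, 60.1 and 71.0 FPKM in Dux KO and 96.9, 103, 87.0 and 86.0 FPKM in WT. It fell in all 4 pools relative to any WT pool (log2 fold change -0.52, SE 0.14, limma adjusted p = 0.0162). The exons of Snhg1 (chromosome 19, 8723475 to 8726443), merged over its annotated transcripts, form 1 stretch of 2969 bases that spans its snoRNAs. Snhg1 was at 11.3, 12.3, 14.7 and 14.2 FPKM in Dux KO and 18.7, 18.8, 15.2 and 19.5 FPKM in WT. Its groups did not overlap either, but Dux KO pool 3 and WT pool 3 nearly met (log2 fold change -0.44, SE 0.15, limma adjusted p = 0.0445). The calls of Snhg10 and Snhg1 were lost when any of Dux KO pools 1 and 2 and WT pools 1, 2 and 4 was left out, with limma adjusted p up to 0.0715 for Snhg10 and 0.126 for Snhg1. With quantile normalization 1 host was higher and 1 lower, since Snhg10, Snhg15 and Snhg1 then lost their calls. Without Dux KO pools 1 and 2, 0 hosts were called in either direction, where limma called 353 genes higher and 447 lower in all.

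The 4 most abundant hosts without a call overlapped between the groups. Snhg5, which holds Snord50a and Snord50b, was at 29.1, 38.1, 26.0 and 39.2 FPKM in Dux KO and 39.3, 33.5, 47.2 and 37.6 FPKM in WT (log2 fold change -0.25, limma adjusted p = 0.266). Snhg6, the host of Snord87, was at 24.2 ± 2.94 FPKM in Dux KO and 24.8 ± 1.82 FPKM in WT (SD, n = 4 each), with a 95% interval of the log2 fold change of -0.35 to 0.27. Snhg20 ranged over 11.3 to 24.6 FPKM in Dux KO and 16.7 to 31.0 FPKM in WT. Its low value is Dux KO pool 2, and WT pools 1 and 2 stand above the other 6 pools. Snhg8, the host of Snora24, was at 10.7, 10.7, 11.1 and 11.4 FPKM in Dux KO and 18.4, 18.4, 7.98 and 14.5 FPKM in WT. The 4 Dux KO values are nearly equal while WT pool 3 lies below them all (log2 fold change -0.34, limma adjusted p = 0.255), and without that pool Snhg8 was called lower (log2 fold change -0.59, limma adjusted p = 0.0226).

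**Figure D1:**
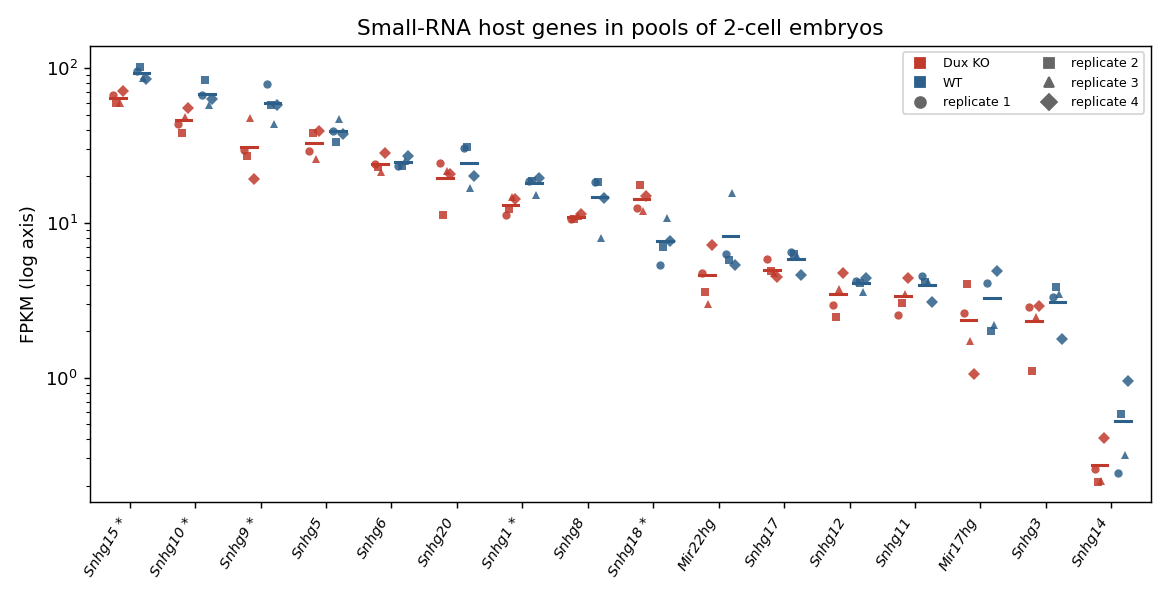
FPKM (log axis) of the 16 host genes in each pool, ordered by mean level, with Dux KO left of WT, 1 symbol per replicate and bars at the group means, and an asterisk on hosts called by limma. Snhg18 is the 1 called host with Dux KO above WT, at 11.9 to 17.6 FPKM in Dux KO and 5.31 to 10.8 FPKM in WT.

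Both hosts named Mir were low, and neither was called. Snhg10 and Snhg20 also span 1 annotated microRNA each, and of these Snhg10 was called lower and Snhg20 was not called. Mir17hg, the host of the miR-17 cluster of proliferation-linked microRNAs (chromosome 14, 115042879 to 115046727), was at 2.63, 4.05, 1.72 and 1.06 FPKM in Dux KO and 4.07, 2.02, 2.18 and 4.90 FPKM in WT. The groups overlap in part, with Dux KO pools 3 and 4 below all WT pools and WT pools 1 and 4 above all Dux KO pools (log2 fold change -0.37, limma adjusted p = 0.338). Mir22hg (chromosome 11, 75461539 to 75466676) was at 4.76, 3.57, 2.98 and 7.24 FPKM in Dux KO and 6.30, 5.76, 15.5 and 5.37 FPKM in WT, where WT pool 3 stands far above the rest (log2 fold change -0.65, limma adjusted p = 0.128). Of its 1924 exon bases, 206 overlap Tlcd2 on the same strand, so some reads can belong to either gene. Exons of 6 of the 16 hosts overlap another gene, most of all Snhg3, with 83.3% of its exon bases. For Snhg17 that other gene, Gm23925, carries the name of a snoRNA that Snhg17 holds. Libraries cut from amplified cDNA with Nextera XT keep no record of strand, so reads from overlapping exons of 2 genes cannot be told apart by strand. Exons of 27 of the 47 opposite-strand genes overlap another gene.

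Opposite-strand transcripts moved in both directions. Of 47 tested, 8 were called higher and 6 lower in Dux KO and 33 were not called, so that 29.8% were called, beside 33.6% of all genes. Log2 fold changes ran from -0.99 to 1.92 with a median of -0.15, and 29 were negative and 18 positive. The values of Dux KO and WT pools overlapped for 32 transcripts and not for the other 15 of 47, beside 33.1% of all genes tested whose groups did not overlap. By edgeR on the recovered reads 8 were higher and 3 lower, and by DESeq2 10 and 4. By biotype, limma called 8 higher and 5 lower of 37 noncoding members and 1 of 10 protein-coding members, Slc7a6os. Whether these shares differ was not tested, and at an unadjusted p under 0.05 the protein-coding Myocos was higher as well. Without Dux KO pool 2 the median was 0.01, and that pool held the lowest of the 8 values for 20 of the 47 transcripts and the highest for 9. Median FPKM over the 47 was 3.21 to 5.43 in Dux KO and 4.06 to 5.56 in WT pools, which overlap, while those of the hosts were apart by a narrow gap. Whether hosts and opposite-strand transcripts differ in their shift was not tested.

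Pard3bos2 rose most. It lies inside Pard3b, a gene of the cell polarity family (chromosome 1, 62131195 to 62136109, minus strand), and shares no exon base with it. Its levels were 11.6, 17.9, 11.1 and 8.11 FPKM in Dux KO, against 5.92, 1.03, 2.59 and 1.58 FPKM in WT. All Dux KO pools were above the highest WT pool, pool 1 (log2 fold change 1.92, SE 0.35, limma adjusted p = 0.00415). Pard3b itself was not analysed here.

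Kbtbd8os, whose start lies inside Kbtbd8, an adaptor gene of a ubiquitin ligase (chromosome 6, 95114017 to 95117631, minus strand), was at 8.23, 12.7, 8.53 and 9.08 FPKM in Dux KO and 3.05, 5.56, 3.50 and 3.20 FPKM in WT. The groups stand well apart, and Pard3bos2, Kbtbd8os and Slc7a6os kept their calls in all 20 alternatives tried (Kbtbd8os log2 fold change 1.15, SE 0.20, limma adjusted p = 0.00375). Aknaos, inside Akna (chromosome 4, 63381358 to 63394018), was at 3.24, 2.77, 2.63 and 2.54 FPKM in Dux KO and 0.884, 1.76, 0.526 and 0.688 FPKM in WT, again with no overlap (log2 fold change 0.98, SE 0.19, limma adjusted p = 0.00508). Grip1os3, beside the start of Grip1, a synaptic scaffold gene, was at 9.06, 19.3, 11.2 and 9.39 FPKM in Dux KO and 6.80, 4.85, 6.81 and 4.88 FPKM in WT. Dux KO pool 2 is the high value there, and the other 3 Dux KO pools are still above WT (log2 fold change 0.91, SE 0.23, limma adjusted p = 0.0143).

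Tbx3os1 runs from the promoter side of Tbx3, a T-box factor known from pluripotent cells (chromosome 5, 119570130 to 119671365). It was at 2.31, 5.0, 3.13 and 2.08 FPKM in Dux KO and 1.62, 1.14, 1.07 and 1.01 FPKM in WT, with no overlap (log2 fold change 0.86, SE 0.21, limma adjusted p = 0.0125). Mkln1os, from the start of the muskelin gene Mkln1 (chromosome 6, 31366885 to 31398773), was at 1.78, 2.81, 1.51 and 1.54 FPKM in Dux KO and 1.11, 1.34, 0.874 and 0.310 FPKM in WT. Its groups came close without overlap (log2 fold change 0.62, SE 0.20, limma adjusted p = 0.0372). Fam120aos, divergent from Fam120a, a gene of an RNA-binding protein, was at 3.13, 3.07, 3.33 and 3.99 FPKM in Dux KO and 2.01, 1.82, 2.61 and 1.28 FPKM in WT (log2 fold change 0.60, limma adjusted p = 0.0235). Arhgap20os, the most abundant opposite-strand transcript, was at 67.3, 110.3, 77.6 and 66.2 FPKM in Dux KO and 59.1, 65.5, 45.9 and 43.0 FPKM in WT. Dux KO pool 4 and WT pool 2 nearly met, and the call, at a limma adjusted p of 0.0460, was lost in 8 of 20 alternatives (log2 fold change 0.57). Leaving out Dux KO pool 1, 2 or 3 or WT pool 1, 3 or 4 each ended that call, with limma adjusted p up to 0.126. Mkln1os lost its call without Dux KO pool 1 or 2 or WT pool 3 or 4 (limma adjusted p up to 0.103), and Fam120aos without WT pool 4 (limma adjusted p = 0.0688).

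Man2c1os fell most of the opposite-strand transcripts. It begins at the 5′ end of Man2c1, a cytosolic mannosidase gene (chromosome 9, 57099950 to 57131290), and 30.9% of its exon bases overlap Man2c1 or Sin3a. Its levels were 2.59, 3.21, 4.50 and 3.33 FPKM in Dux KO, against 9.28, 9.01, 6.00 and 6.80 FPKM in WT, with no overlap (log2 fold change -0.99, SE 0.19, limma adjusted p = 0.00516). Slc7a6os (chromosome 8, 106200717 to 106210935) encodes a protein related to the yeast factor Iwr1, which carries RNA polymerase II into the nucleus. It was at 22.9, 21.9, 23.1 and 22.7 FPKM in Dux KO and 34.9, 36.7, 33.1 and 38.7 FPKM in WT. The values are tight in both groups and far apart between them (log2 fold change -0.64, SE 0.13, limma adjusted p = 0.00600).

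Med9os (chromosome 11, 59946889 to 59948142, minus strand) was at 5.23, 1.57, 3.46 and 3.81 FPKM in Dux KO and 10.3, 6.42, 5.99 and 5.62 FPKM in WT. Its groups did not overlap, although WT pool 1 stands high and Dux KO pool 2 low (log2 fold change -0.88, limma adjusted p = 0.0288), and edgeR, DESeq2 and the authors' deposited p-values did not call it. Dgkeos overlaps the 5′ part of the lipid kinase gene Dgke, with 100 shared exon bases. It was at 3.91, 1.76, 2.56 and 5.35 FPKM in Dux KO and 6.10, 4.72, 5.84 and 9.93 FPKM in WT, where Dux KO pool 4 lies above WT pool 2 (log2 fold change -0.83, limma adjusted p = 0.0376). Rbm3os overlaps the 5′ part of Rbm3, a cold-inducible RNA-binding protein gene, with 94 shared exon bases. It was at 5.04, 7.86, 9.59 and 8.13 FPKM in Dux KO and 14.4, 11.2, 12.9 and 9.15 FPKM in WT. The groups overlap, and the call was lost in 13 of 20 alternatives (log2 fold change -0.59, limma adjusted p = 0.0440). H3f3aos overlaps the 5′ part of the histone variant gene H3f3a, with 160 shared exon bases. It was at 1.29, 0.689, 1.15 and 0.872 FPKM in Dux KO and 2.00, 2.44, 1.64 and 1.37 FPKM in WT, groups that came close without overlap (log2 fold change -0.51, limma adjusted p = 0.0324). Of these 4 transcripts, Med9os lost its call without Dux KO pool 2 or WT pool 1, with limma adjusted p up to 0.0737. Dgkeos lost it without Dux KO pool 1, 2 or 3 or WT pool 1, 3 or 4 (limma adjusted p up to 0.105), and Rbm3os without Dux KO pool 1, 2 or 4 or WT pool 1, 2 or 3 (limma adjusted p up to 0.125). H3f3aos lost it without Dux KO pool 2 or 4 or WT pool 1 or 2 (limma adjusted p up to 0.0872). These folds are on the log2(FPKM + 1) scale, which understates changes of low genes. Reads from the bases that Dgkeos, Rbm3os and H3f3aos share with their partners can come from either gene. The part of such reads in these calls was not tested.

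**Figure D2:**
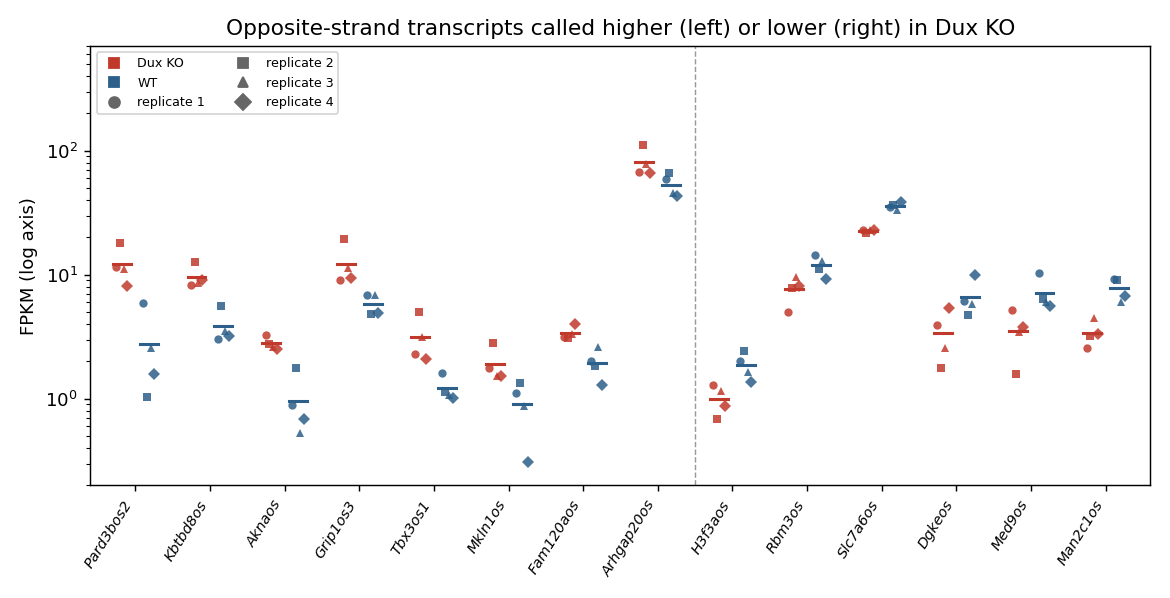
FPKM (log axis) of the 14 opposite-strand transcripts called by limma in each pool, with Dux KO left of WT, 1 symbol per replicate and bars at the group means. The 8 left of the dashed line are higher and the 6 right of it lower in Dux KO, and the groups overlap for Dgkeos and Rbm3os.

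Abundant transcripts without a call included Myocos, Frmpd1os and Epb41l4aos. Myocos, which encodes a protein in the annotation, was at 61.3, 75.4, 59.2 and 50.8 FPKM in Dux KO and 58.4, 44.3, 31.4 and 34.9 FPKM in WT, an overlap of 1 pool on each side. Its limma adjusted p was 0.0510 and its log2 fold change 0.56, and it was called higher in 8 of 20 alternatives, among them without Dux KO pool 4 (limma adjusted p = 0.0440) and without WT pool 1 (limma adjusted p = 0.0211). Frmpd1os was at 20.3 to 25.2 FPKM in Dux KO and 22.4 to 38.8 FPKM in WT, with WT pool 3 alone above 25.2 FPKM. Epb41l4aos, which spans an annotated snoRNA and so is also a host gene, was at 21.6, 18.6, 25.7 and 24.7 FPKM in Dux KO and 33.5, 27.1, 13.7 and 25.4 FPKM in WT. Its 95% interval of the log2 fold change was -0.60 to 0.44. Of the pair left out of the class, Selenos fell to 458 ± 92.6 FPKM in Dux KO, against 775 ± 60.3 FPKM in WT (SD, n = 4 each, limma adjusted p = 0.00915), and Minos1 was at 115 ± 9.86 FPKM in Dux KO and 115 ± 16.8 FPKM in WT.

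**Figure D3:**
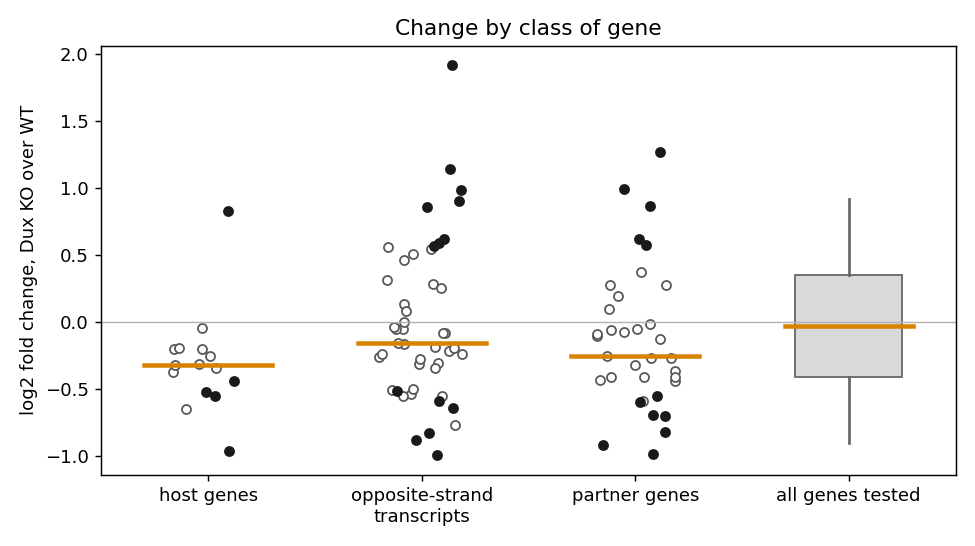
Log2 fold change (Dux KO over WT) of 15 host genes, 47 opposite-strand transcripts and 35 partner genes, with filled points called by limma and orange bars at the medians, beside a box of the middle 50% (whiskers 5% and 95%) of all 12434 genes tested. Of the 15 hosts, 14 lie below 0, with a median of -0.32, and opposite-strand transcripts spread from -0.99 to 1.92 with a median of -0.15.

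Each opposite-strand transcript was then set beside the gene it is named for. Of 47 partners, 41 were measured and 35 passed the minimum together with their transcript, and the partners of Aknaos, Hnf4aos, Igf1os, Myocos, Pard3bos2 and Zbtb8os were not analysed here. FPKM is per length, but the gene lengths and the assignment of reads behind it are not given, so levels within a pair compare only roughly. By FPKM, the transcript was below its partner in all 8 pools in 16 pairs, above it in all 8 in 12, and in mixed order in 7. Of the 35 partners, 5 were called higher and 7 lower, 34.3%, again near the 33.6% of all genes. Without WT pool 4, 3 partners were called lower, and without Dux KO pools 1 and 2 together 1 was called higher and 0 lower. Leaving out Dux KO pool 2 alone gave 4 partners higher and 5 lower. The sign of the log2 fold change was the same in 26 pairs and opposite in 9. Negative values prevailed in both kinds of gene, in 25 of the 35 partners and 29 of all 47 transcripts. Some pairs would share a sign by that alone, and how many was not computed. Both genes were called in 2 pairs, only the transcript in 8, only the partner in 10 and neither in 15. Annotated exons overlap, by 39 to 539 bases, in 18 pairs, of which 13 had the same sign, and 13 of the 17 pairs without overlap had it too.

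By arrangement, 9 pairs start apart and run away from each other (divergent), and 8 of these had the same sign. In 13 pairs the 5′ parts overlap, and 11 had the same sign. The transcript lies inside the partner in 3 pairs, all with the same sign. In 6 pairs the 3′ parts overlap and 3 had the same sign, and in 4 pairs the genes run towards each other without meeting (convergent) and 1 had it. These are counts of few pairs, and were not tested against each other or set beside pairs of unrelated genes.

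The Med9 pair is the 1 in which both genes were called lower. Med9, a subunit gene of Mediator, was at 49.5, 30.2, 59.8 and 47.3 FPKM in Dux KO and 77.1, 66.4, 76.4 and 78.2 FPKM in WT (log2 fold change -0.70, limma adjusted p = 0.0195). All Dux KO pools of Med9 lie below WT, and in both genes of the pair Dux KO pool 2 is the lowest of 8. The difference between the pair, on log2(FPKM + 1), was -3.43 ± 0.33 in Dux KO and -3.25 ± 0.36 in WT (SD, n = 4 each), and did not differ beyond the spread (exact permutation p = 0.486, two-sided). The promoter window of Med9os is shown because the data of both genes bear on it, as is that of Mkln1os, whose partner was not called. Both are 300 bases of RefSeq on GRCm38.p6, on the minus strand, and capitals mark the run between the RefSeq start of the partner and that of the transcript. The Med9os window is chr11:59948098-59948397, with 67 bases between the starts, and the Mkln1os window is chr6:31398724-31399023, with 55.
Med9os: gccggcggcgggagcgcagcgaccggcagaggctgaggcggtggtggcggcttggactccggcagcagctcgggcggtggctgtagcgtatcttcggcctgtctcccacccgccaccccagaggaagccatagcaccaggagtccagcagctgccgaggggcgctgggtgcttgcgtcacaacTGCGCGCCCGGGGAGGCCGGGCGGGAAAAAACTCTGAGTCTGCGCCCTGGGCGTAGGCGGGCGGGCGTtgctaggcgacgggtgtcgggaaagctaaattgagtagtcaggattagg
Mkln1os: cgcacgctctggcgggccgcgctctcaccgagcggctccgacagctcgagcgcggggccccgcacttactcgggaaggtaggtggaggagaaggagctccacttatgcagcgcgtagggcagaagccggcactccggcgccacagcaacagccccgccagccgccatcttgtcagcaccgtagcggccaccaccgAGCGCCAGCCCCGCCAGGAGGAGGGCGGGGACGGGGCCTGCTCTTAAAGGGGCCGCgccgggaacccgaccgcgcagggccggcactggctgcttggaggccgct
GC content is 68.7% and 72.7% in these windows, beside a median of 52.7% over 27025 genes and of 60.0% both over 15 hosts and over 37 opposite-strand genes with an entry. A C followed by 4 pyrimidines within 2 bases of the annotated start, the letters of a terminal oligopyrimidine start, was found in 4 of 15 hosts (Snhg12, Snhg18, Snhg3 and Snhg8), in 3 of 37 opposite-strand genes and in 10.6% of all.

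In 7 of the 35 pairs the difference between transcript and partner was apart in the groups, with an exact permutation p of 0.0286 (two-sided, not adjusted for 35 pairs), the smallest that 4 against 4 pools can give. Among single genes, 33.1% of those tested did not overlap between the groups, and no such share was computed for other gene pairs. Slc7a6os and Slc7a6 differed most. Slc7a6, a transporter gene of cationic and neutral amino acids that runs towards Slc7a6os, was at 4.30, 3.62, 3.60 and 4.32 FPKM in Dux KO and 1.35, 1.02, 1.49 and 2.18 FPKM in WT, and rose (log2 fold change 1.00, limma adjusted p = 0.00353). The pair thus moved in opposite directions without a shared exon base, and its difference was 2.26 ± 0.11 in Dux KO and 3.89 ± 0.25 in WT (SD, n = 4 each), a change of -1.63.

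Epb41l4aos was not called, while its convergent partner Epb41l4a, a membrane skeleton gene, rose to 6.64, 10.4, 5.58 and 3.92 FPKM in Dux KO, against 2.87, 2.13, 1.52 and 1.72 FPKM in WT (log2 fold change 1.27, limma adjusted p = 0.00529). The pair's difference changed by -1.35. Likewise Rab10, a small GTPase gene of vesicle traffic, rose to 44.1, 40.7, 28.1 and 37.3 FPKM in Dux KO, against 25.1, 23.8, 23.3 and 22.7 FPKM in WT (log2 fold change 0.62, limma adjusted p = 0.0148). Rab10os, whose 3′ part overlaps Rab10 by 143 exon bases, was at 7.94 ± 1.54 FPKM in Dux KO and 9.85 ± 2.16 FPKM in WT (SD, n = 4 each), and this pair's difference changed by -0.90.

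Upward changes of the difference were seen in 4 pairs, and 3 of them are of transcripts that rose. Kbtbd8 was abundant at 125, 179.7, 137 and 98.9 FPKM in Dux KO and 122, 125, 119 and 97.0 FPKM in WT and was not called (log2 fold change 0.20, limma adjusted p = 0.417), so that the difference to Kbtbd8os changed by 0.95. Tbx3 was at 2.01, 2.47, 1.49 and 2.20 FPKM in Dux KO and 2.00, 2.42, 2.24 and 1.59 FPKM in WT. Tbx3 was not called, and Tbx3os1 was below it in all 4 WT pools and above it in 3 of 4 Dux KO pools, a change of 0.87. Mkln1 was at 1.80, 2.46, 2.31 and 2.41 FPKM in Dux KO and 3.16, 3.10, 3.89 and 3.09 FPKM in WT, all below WT yet not called (limma adjusted p = 0.0543). Mkln1os changed by 1.03 relative to it, and their exons overlap by 39 bases in GENCODE M21. That annotation starts Mkln1 farther upstream than RefSeq, by whose starts the pair does not meet. In the other pair, Appbp2, an adaptor gene that binds the amyloid precursor protein, fell to 22.5 ± 3.87 FPKM in Dux KO, against 33.5 ± 6.23 FPKM in WT (SD, n = 4 each, limma adjusted p = 0.0367), while Appbp2os was at 3.88 ± 1.35 FPKM in Dux KO and 4.00 ± 1.16 FPKM in WT. That difference changed by 0.50. Of these 7 pairs, 3 share no exon base. Without Dux KO pool 2, 14 pairs were apart. Groups that do not overlap stay apart when a pool is left out, and smaller groups separate more easily, so the higher count does not show a firmer result.

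**Figure D4:**
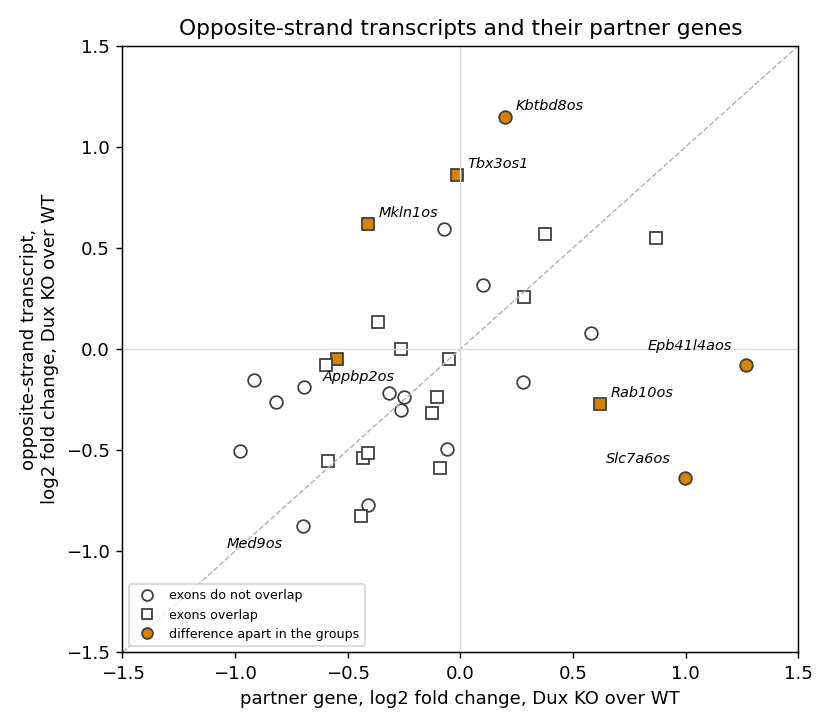
Log2 fold change (Dux KO over WT) of each opposite-strand transcript against that of its partner in 35 pairs, as squares where exons overlap and circles where they do not, with the 7 pairs whose difference was apart in the groups filled. The 26 pairs with the same sign lie lower left or upper right, and Slc7a6os lies at -0.64 against 1.00 for Slc7a6.

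**Figure D5:**
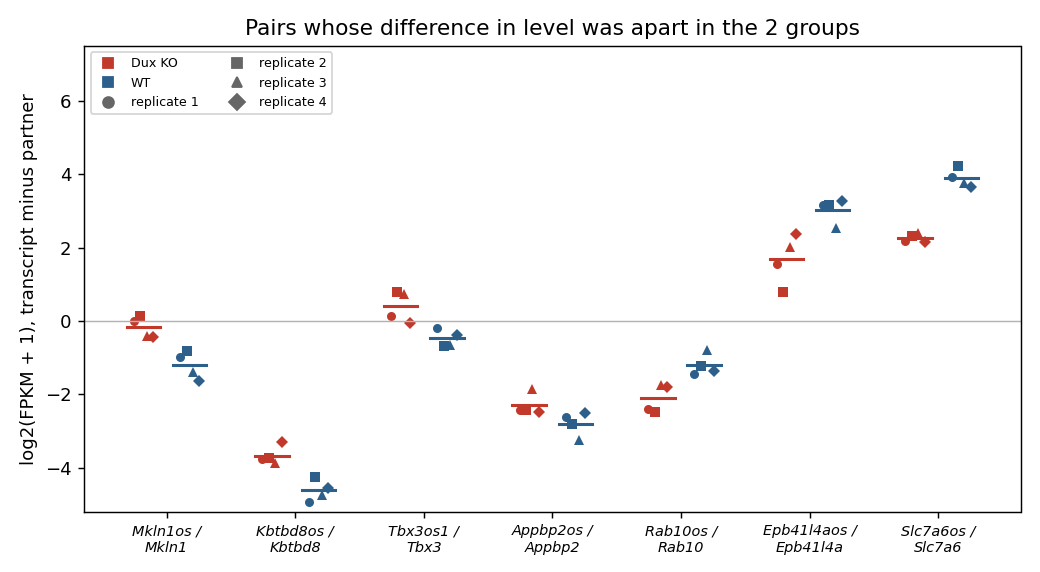
Difference in log2(FPKM + 1) between transcript and partner in each pool for the 7 pairs that were apart, with Dux KO left of WT, 1 symbol per replicate and bars at the group means. The values do not overlap within a pair, and for Slc7a6os they average 2.26 in Dux KO and 3.89 in WT.

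Other named partners stood as follows. Fam120a was at 5.30 ± 1.90 FPKM in Dux KO and 5.58 ± 1.71 FPKM in WT (SD, n = 4 each, as for the next 3 genes), and Dgke at 9.95 ± 2.70 FPKM in Dux KO and 13.6 ± 0.889 FPKM in WT. Rbm3 was at 3.16 ± 1.61 FPKM in Dux KO and 3.30 ± 1.04 FPKM in WT, and H3f3a at 20.8 ± 4.78 FPKM in Dux KO and 27.7 ± 5.03 FPKM in WT. None of these 4 partners was called. Arhgap20, a gene of a GTPase-activating protein, was at 1.56, 2.35, 1.34 and 1.07 FPKM in Dux KO and 0.988, 0.948, 0.818 and 1.08 FPKM in WT, far below Arhgap20os, and was not called (limma adjusted p = 0.0867). Grip1, Man2c1 and Frmpd1 were under the minimum, with means of 0.610, 0.411 and 0.422 FPKM in Dux KO and 0.380, 0.434 and 0.397 FPKM in WT.

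Genes that act on these RNAs were counted from lists of the pathway. Of 18 genes of snoRNA-protein complexes and their assembly, 9 fell and 0 rose by limma, with a median log2 fold change of -0.56. Of all genes tested 18.1% fell and 15.5% rose, and of those averaging 5 FPKM or more 26.8% fell. At an unadjusted p under 0.05, 12 were lower and 0 higher, and edgeR and DESeq2 called 9 and 10 lower and 0 higher. Snu13, a core protein that binds the box C and D elements, fell to 51.8 ± 14.0 FPKM in Dux KO, against 101 ± 8.36 FPKM in WT (SD, n = 4 each, log2 fold change -0.99, limma adjusted p = 0.00647). Nufip1, an assembly factor, fell to 31.4 ± 5.41 FPKM in Dux KO, against 61.6 ± 9.20 FPKM in WT (log2 fold change -0.96, limma adjusted p = 0.00389). With quantile normalization 6 genes of the list were called lower, as also without Dux KO pool 1 or 2 or WT pool 3 or 4. Without Dux KO pools 1 and 2 together 5 were.

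Among 32 other genes that host snoRNAs, most of them protein-coding, 9 fell and 0 rose by limma, with a median of -0.40. These 9 are 28.1% of the list, beside 18.1% of all genes called lower and 26.8% of those averaging 5 FPKM or more. The log2 fold change was negative for 30 of the 32, beside 51.6% of all genes and 3912 of the 6468 averaging 5 FPKM or more. The unadjusted counts were 16 lower and 0 higher, edgeR called 10 lower and DESeq2 12, and both called 0 higher. Gnl3, a nucleolar GTPase gene, fell to 46.7 ± 16.4 FPKM in Dux KO, against 94.3 ± 17.8 FPKM in WT (SD, n = 4 each, limma adjusted p = 0.0123). With quantile normalization 5 genes of this list were called lower, and without Dux KO pools 1 and 2 together 1 was. Leaving out Dux KO pool 2 gave 7 lower, and leaving out Dux KO pool 1 or WT pool 3 or 4 gave 6. Nonsense-mediated decay, which degrades some spliced host transcripts, had 5 of 17 genes lower and 0 higher by limma, edgeR and DESeq2, with 6 lower and 0 higher at an unadjusted p under 0.05. That is 29.4% of the list, again beside 18.1% of all genes called lower and 26.8% of those averaging 5 FPKM or more. The log2 fold change was negative for 14 of the 17. Its helicase of the exon junction, Eif4a3, fell to 97.3 ± 23.1 FPKM in Dux KO, against 173 ± 27.1 FPKM in WT (SD, n = 4 each), and Rbm8a to 98.1 ± 15.8 FPKM in Dux KO, against 153 ± 5.84 FPKM in WT. With quantile normalization 3 genes of this list were called lower, without Dux KO pool 1 or WT pool 4 2 were, and without Dux KO pools 1 and 2 together 0 were. Of 12 tested genes of microRNA processing, 1 was higher and 0 lower by limma, edgeR and DESeq2, and at an unadjusted p under 0.05 1 was lower, with a median of -0.05. The 1 that rose was Tnrc6a, a scaffold of the silencing complex, at 1.60 ± 0.21 FPKM in Dux KO and 0.918 ± 0.117 FPKM in WT (SD, n = 4 each, limma adjusted p = 0.0245). That call was lost with quantile normalization, without Dux KO pool 2, WT pool 2 or WT pool 3, and without Dux KO pools 1 and 2 or 3 and 4 together.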

How the data were processed

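RNA was sequenced from 4 Dux KO and 4 WT pools, grouped by the labels. The authors deposited a gene table with FPKM per pool, the mean count over samples, a log2 fold change and an adjusted p-value, per the file headers, and a repeat table with a signal (FPM) that was not used for results. Per the submitters' processing notes, Trimmomatic 0.32, STAR 2.6.1a, SAMtools 1.7 and the build GRCm38 (mm10) were used. Not given in the sources used here are the authors' counter, annotation, strand setting and test.

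From these values, log2(FPKM + 1) of genes averaging 0.5 FPKM or more was tested with limma 3.58.1 (R 4.3.3, variance trend and robust moderation, two-sided), adjusted by Benjamini-Hochberg over 12434 genes. The fit was tested on simulated data of these genes, with planted changes larger than most of those reported here, and recovered most changed genes. It does not show how many smaller changes the fit would miss. FPKM are whole multiples of a step per gene and pool, so reads were recovered (100% of values whole within 0.05) for edgeR 4.0.16 and DESeq2 1.42.0 as alternatives. By chi-square of their reads, no 2 pools of a group agreed within sampling noise. Transcript and partner were compared by their difference per pool, with an exact permutation test over 70 splits. Partners are the symbols left after os is taken off. Positions, exons and biotypes are from GENCODE M21 (GRCm38), where all 65 members have a record. Of 65 members, 63 were analysed as members of a class.

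Named are all called members, the 4 most abundant uncalled ones of each class, all Mir hosts, the partners of named transcripts and of pairs that were apart, and 2 called genes a direction from each pathway list. Mir hosts, Snhg14, the partners of other pairs and the Selenos and Minos1 values were added after their values were seen. Members, lists and rules were chosen with earlier results of these data known. Some items that these rules take are not reported here. Numeric columns left unmapped to a sample numbered 0.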

Additional observations from a re-analysis of the deposited data

Results flagged for a closer look

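Values of 4 pools were screened for a sample far from the other 3 of its group, over 94 groups of host genes, named opposite-strand transcripts and their partners. Chance marks about 1 in 20 such groups, and 5 were marked here, all of them in WT. WT pool 3 held 15.5 FPKM of Mir22hg, where the other WT pools held 5.37 to 6.30 FPKM. It also held 38.8 FPKM of Frmpd1os beside 22.4 to 23.2 FPKM, and 3.89 FPKM of Mkln1 beside 3.09 to 3.16 FPKM. WT pool 1 held 10.3 FPKM of Med9os beside 5.62 to 6.42 FPKM in the other WT pools, and without that pool Med9os lost its call. WT pool 2 was the lowest of its group for Med9, at 66.4 FPKM beside 76.4 to 78.2 FPKM.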

How the results depend on the processing

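Leaving out Dux KO pools 1 and 2 together lowered calls over all genes to 353 higher and 447 lower, of hosts to 0 higher and 0 lower and of opposite-strand transcripts to 2 higher and 1 lower. The opposite-strand median was then -0.013, and 14 pairs were apart. Without Dux KO pools 3 and 4 the medians were -0.45 for hosts and -0.28 for opposite-strand transcripts. With quantile normalization 1 host was lower. Among genes averaging 5 FPKM or more, 5 opposite-strand transcripts were higher, and 1032 genes in all. By edgeR 3 opposite-strand transcripts were lower. Among members without exon overlap with any gene, an alternative chosen after seeing the data as were the noncoding members alone and the count with Selenos and Minos1, 4 opposite-strand transcripts were higher and 2 lower, of 20. Of pairs without exon overlap 3 were apart.

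Leaving out each pool in turn gave 1 host higher and 2 to 5 lower, 5 to 10 opposite-strand transcripts higher and 2 to 6 lower, 1179 to 1912 genes higher and 1348 to 2133 lower, and 7 to 14 pairs apart, the 14 without Dux KO pool 2. Host medians ran from -0.37 to -0.22 and opposite-strand medians from -0.23 to 0.010, the highest without Dux KO pool 2.

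Among the named members, signs turned for 3 uncalled genes and for no called one. Snhg6 was at 0.089 with quantile normalization, 0.0018 by edgeR, 0.0038 by DESeq2 and -0.11 to 0.015 over left-out pools. Epb41l4aos was at 0.046 with quantile normalization, 0.081 without Dux KO pools 1 and 2 and -0.33 to 0.083 over left-out pools. Frmpd1os ran from -0.26 to 0.00038. Of named calls, Rbm3os was lost in 13 of 20 alternatives, Snhg1 in 10, Arhgap20os in 8, and Snhg10, Med9os and Dgkeos in 7 each. Mkln1os and H3f3aos were lost in 7 of 19. The causes were not tested.

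The replicate number as a block gave 1 host higher and 3 lower, 9 opposite-strand transcripts higher and 7 lower and 2141 and 2591 genes in all, with 12 genes of snoRNA-protein complexes and 14 of the other snoRNA hosts lower. Deviations of same-numbered pools correlated at -0.12, 0.33, -0.06 and 0.30, so the numbers were not taken to pair the pools. Depth limits the rarer transcripts: the opposite-strand class had a median of 83.5 reads a pool, and the lowest, Aknaos, 29.8.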
